A study of Vitis riparia with 12 samples.

Results

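ABF2 (VIT_18s0001g10450), ABF3 (VIT_03s0063g00310) and ABI5 (VIT_08s0007g03420) are 3 basic leucine zipper (bZIP) transcription factor genes of the abscisic acid (ABA) pathway, and their level was followed in roots and shoots of the grapevine Vitis riparia under water deficit. The genes were chosen by identifier and all 3 were found, among 29966 gene models in the deposited tables. The series had 4 groups of 3 libraries: roots and shoots of vines that received no water for 14 d (WD root, WD shoot) and of vines given 2 L of tap water each day (C root, C shoot). Each replicate combined 3 potted vines of a single accession. The sample descriptions call the tissue whole root or whole shoot, whereas the extraction protocol names root tips and shoot tips. Root and shoot RNA were extracted by different methods, so organ and extraction cannot be told apart. The reference for alignment was Vitis vinifera, another species.

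ABA is the hormone of drought and of seed dormancy. When ABA binds its RCAR receptors, the receptors hold back type 2C protein phosphatases (PP2C), SnRK2 kinases are released, and in Arabidopsis these kinases phosphorylate bZIP factors of the ABF and ABI5 group, which bind ABA-responsive elements in the promoters of stress genes. In Arabidopsis ABF2 and ABF3 act mainly in vegetative tissue and ABI5 mainly in seeds and seedlings, and the RING-type ubiquitin ligase KEG marks ABI5 for breakdown.

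On the PN40024 12X build, ABF2 lies on chromosome 18 from 8761977 to 8769742, a span of 7766 bases, and ABI5 on chromosome 8 from 17372099 to 17378057, a span of 5959 bases. Neither span overlaps another gene model. ABF3 lies on chromosome 3 from 3887072 to 3890514 and its last base is also the first base of the model VIT_03s0063g00320. The strand of the models and of the counting was not given in the sources used here, so reads near that end of ABF3 could belong to either model. The neighbour had log2 fold changes of 0.87 in root (SE 0.29, adjusted p = 0.469, edgeR) and 0.64 in shoot (SE 0.28, adjusted p = 0.124, edgeR), WD against C, and its part in the ABF3 values was not tested.

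The 12 libraries held 14376065 to 22800079 reads on genes in root and 17429395 to 27769527 in shoot. Of 6 photosynthesis genes taken as green-tissue markers, 6 were higher in C shoot than in C root by edgeR, against 27.3% of all tested genes. Their summed level, in CPM (counts relative to library size) scaled over the 12 libraries, was 5151 to 13943 in the shoots, 7.39 to 16.7 in C root and 55.4 to 120 in WD root. The summed level of 4 root markers did not separate the organs, at 53.3 to 101 in the roots and 24.8 to 74.9 in the shoots. EXPA7, a root hair expansin, was at 1 to 2 counts in C shoot and at 0 in the 3 WD shoot libraries. Peroxidase 3 had 0 to 7 counts in the shoots and at least 157 in the roots. The nitrate transporter genes of the list did not mark roots here: NRT2.5 was higher in C shoot than in C root by 3.23 on the log2 scale (SE 0.64, adjusted p = 0.00169, edgeR), and NRT3.1 had a difference of -0.34 (SE 0.54, adjusted p = 0.625). The translation factor eIF4A, a reference gene, had log2 fold changes of 0.15 in root (SE 0.21) and 0.13 in shoot (SE 0.23), WD against C, with edgeR adjusted p-values of 0.788 and 0.699. Replicates were sets of 3 vines, and p-values measure the spread between these sets.

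Levels are given in RPKM, reads relative to transcript length and library size, as deposited by the authors. By RPKM ABF3 was the most abundant of the 3 genes in all 12 libraries, ABF2 followed, and ABI5 was the lowest. In raw counts ABF2 exceeded ABF3 in WD root replicate 3 (3233 against 2240). It did so too in WD shoot replicates 2 (5467 against 5424) and 3 (6523 against 3643). In C root the mean RPKM was 11.6 ± 0.654 for ABF3, 4.76 ± 0.846 for ABF2 and 0.295 ± 0.0470 for ABI5 (SD, n = 3). By mean RPKM, ABF3 stood above 80.5% of the 19545 genes tested in root in the C libraries and above 92.3% of the 19569 genes tested in shoot, whereas ABI5 stood above 7.18% and 3.70%. The per-length scale carries a limit of its own, since the length that reconciles counts with RPKM was 7.73 kb for ABF2, 4.10 kb for ABF3 and 10.4 kb for ABI5 in root (medians over 6 libraries), or 0.996, 1.19 and 1.74 times the genomic span. Over 9498 genes with at least 200 counts in every root library the median of that ratio was 1.49 in root, so RPKM was not simply the counts divided by an exon length. In shoot the length for ABI5 ran from 8.65 to 14.3 kb between libraries, so its RPKM there did not follow its counts closely.

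**Figure D1:**
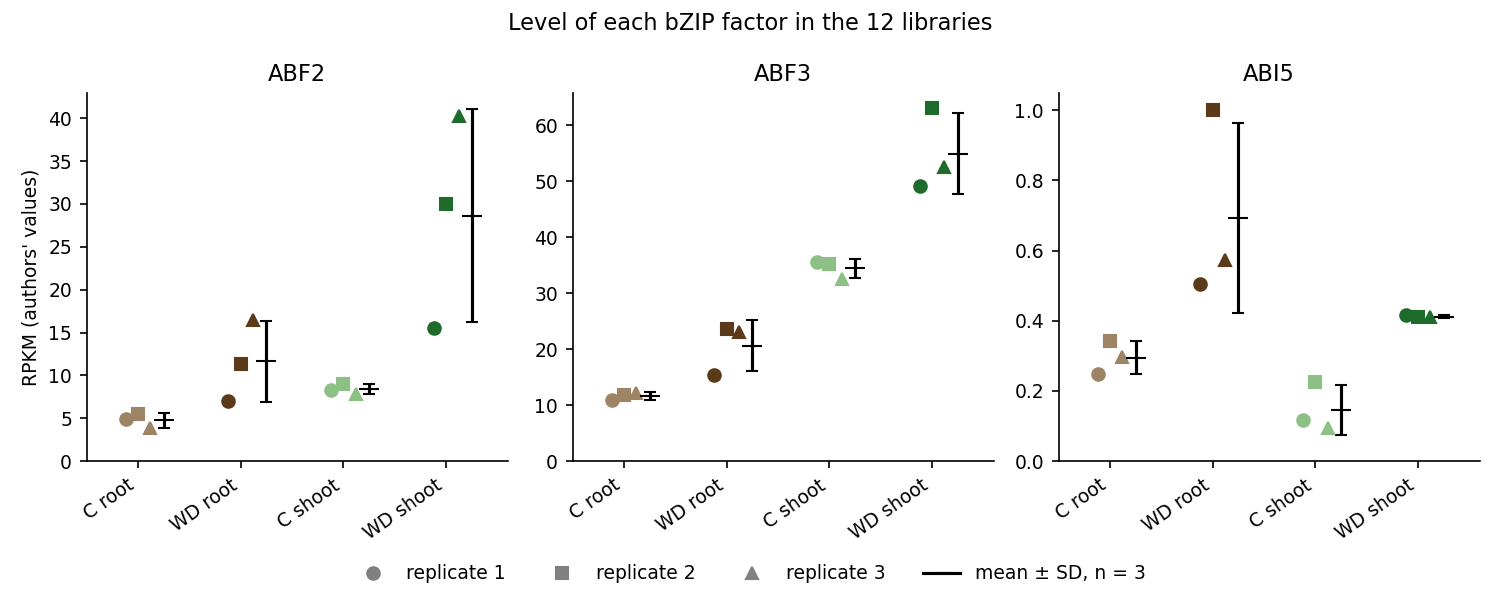
RPKM of ABF2, ABF3 and ABI5 (vertical axes, 1 scale per gene) in the 12 libraries, by group, with the replicate number as the symbol and the mean ± SD (n = 3) beside the points. For each gene and organ the 3 WD libraries lie above the 3 C libraries, with the WD shoot libraries of ABF2 spread from 15.6 to 40.3 and those of ABI5 between 0.409 and 0.416. In CPM, not drawn, the WD shoot libraries of ABI5 ran from 4.66 to 6.20.

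The comparison of WD with C in the shoot asked how the factors stood in the growing shoot after 14 d without water. All 3 genes rose. ABF2 increased 3.78-fold, ABI5 3.79-fold and ABF3 1.75-fold, and in each the 3 WD shoot libraries lay above the 3 C shoot libraries. By edgeR's quasi-likelihood test with Benjamini-Hochberg adjustment over all genes, 27.1% of the 19569 genes tested in shoot were called at 0.05 and 13.1% were called higher in WD. WD libraries lay above C libraries without overlap for 24.5% of the tested genes.

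ABF2, which in Arabidopsis and grapevine is an ABA-responsive activator, had RPKM values of 8.33, 8.96 and 7.79 in C shoot replicates 1 to 3. In WD shoot it had 15.6, 30.0 and 40.3. The lowest WD library was 1.74 times the highest C library, and the WD libraries differed among themselves far more than the C libraries did, with SDs of 12.4 and 0.585. The counts behind these values were 1636 to 2167 in C shoot and 2993 to 6523 in WD shoot, so counting error was small beside the spread between libraries. The log2 fold change was 1.92 (SE 0.32, adjusted p = 0.0127, edgeR). Within WD shoot the level put ABF2 above 91.5% of the tested genes, against 73.9% in C shoot.

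ABF3, whose Arabidopsis counterpart promotes stomatal closure and drought tolerance, had RPKM values of 35.6, 35.3 and 32.5 in C shoot and 49.2, 63.1 and 52.5 in WD shoot. The groups did not overlap, and replicate 2 was the highest WD library here whereas replicate 3 was the highest for ABF2. The log2 fold change was 0.81 (SE 0.17, adjusted p = 0.0189, edgeR).

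ABI5 was counted with far fewer reads. It had 25, 68 and 27 counts in C shoot replicates 1 to 3, with exact Poisson 95% intervals of 16.2 to 36.9, 52.8 to 86.2 and 17.8 to 39.3 that cover counting error only. In WD shoot it had 114, 98 and 102 counts. In RPKM these were 0.119, 0.225 and 0.0932 in C shoot and 0.416, 0.410 and 0.409 in WD shoot. The groups did not overlap, and C shoot replicate 2 was the highest C library. The 3 WD libraries were nearly equal in RPKM, but in CPM they ran from 4.66 to 6.20. The log2 fold change was 1.92 (SE 0.38, adjusted p = 0.0173, edgeR).

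The shoot calls rested on particular libraries. Without WD shoot replicate 2 the adjusted p-values of edgeR were 0.0530 for ABF2, 0.0674 for ABF3 and 0.0563 for ABI5, and without C shoot replicate 3 they were 0.0576, 0.0824 and 0.0687, while the genes called over the whole table fell from 5301 to 713 and 632. Without C shoot replicate 2 the adjusted p of ABF3 was 0.0625 (2465 genes called). The log2 fold changes stayed between 1.62 and 2.18 for ABF2, 0.71 and 0.89 for ABF3, and 1.74 and 2.38 for ABI5 whichever of the 6 libraries was left out.

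In root the same comparison gave no call by edgeR. In simulated root counts with few changed genes, edgeR recovered 2 of 50 changes of 2-fold, a rate that need not hold for the real counts. The fitted levels in WD root were 2.34-fold the C level for ABF2, 1.74-fold for ABF3 and 2.32-fold for ABI5, and in each gene the 3 WD root libraries lay above the 3 C root libraries, a separation seen for 8.18% of the 19545 genes tested in root. By edgeR 0 genes (0%) had an adjusted p under 0.05 in root, 1771 (9.06%) had an unadjusted p under 0.05 and 5.8% had one with a higher level in WD. By DESeq2 441 genes (2.26%) were called, 1.42% as higher in WD.

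ABF2 had RPKM values of 4.87, 5.54 and 3.86 in C root and 7.01, 11.4 and 16.5 in WD root. The lowest WD root library was 1.27 times the highest C root library, and replicate 3 was the highest WD library, as in the shoot. The log2 fold change was 1.23 (SE 0.35, unadjusted p = 0.0116, adjusted p = 0.434, edgeR), and the adjusted p by DESeq2 was 0.0675.

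ABF3 had RPKM values of 10.9, 11.9 and 12.1 in C root and 15.3, 23.6 and 23.1 in WD root. The C libraries were close together and WD replicate 1 was the lowest of the WD libraries. The log2 fold change was 0.80 (SE 0.20, unadjusted p = 0.00544, adjusted p = 0.396, edgeR), and by DESeq2 the gene was called with an adjusted p of 0.0416.

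ABI5 had 49, 74 and 48 counts in C root and 78, 182 and 140 in WD root. Its RPKM was 0.247, 0.341 and 0.295 in C root and 0.504, 1.001 and 0.572 in WD root. The groups did not overlap in RPKM, and WD replicate 2 stood above the other two. The log2 fold change was 1.21 (SE 0.30, unadjusted p = 0.00504, adjusted p = 0.396, edgeR), and by DESeq2 the adjusted p was 0.0329.

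The green-tissue markers moved with the root comparison. Of the 6 markers 5 passed the filter in root, with a median log2 fold change of 2.82. In 5 of 5 all WD root libraries lay above all C root libraries, against 8.18% of the genes tested in root. WD root replicate 3, the library with the highest ABF2, also had the highest summed marker level. ABF3 and ABI5 were highest in WD root replicate 2, which had the lowest summed marker level of the WD roots (55.4). For ABF3 the RPKM was 23.6 there and 23.1 in replicate 3. Set against the mean of the WD shoot libraries, the summed markers in WD root were at 0.484 to 1.05%, while ABF2 was at 17.7 to 43.7%, ABF3 at 23.8 to 35.8% and ABI5 at 86.9 to 150%. In C root the same figures were 0.0646 to 0.146% for the markers, 9.83 to 15.8% for ABF2, 17.0 to 19.1% for ABF3 and 40.2 to 54.1% for ABI5. A change in the share of cells of a type and a change in RNA per cell cannot be told apart in these bulk samples.

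**Figure D2:**
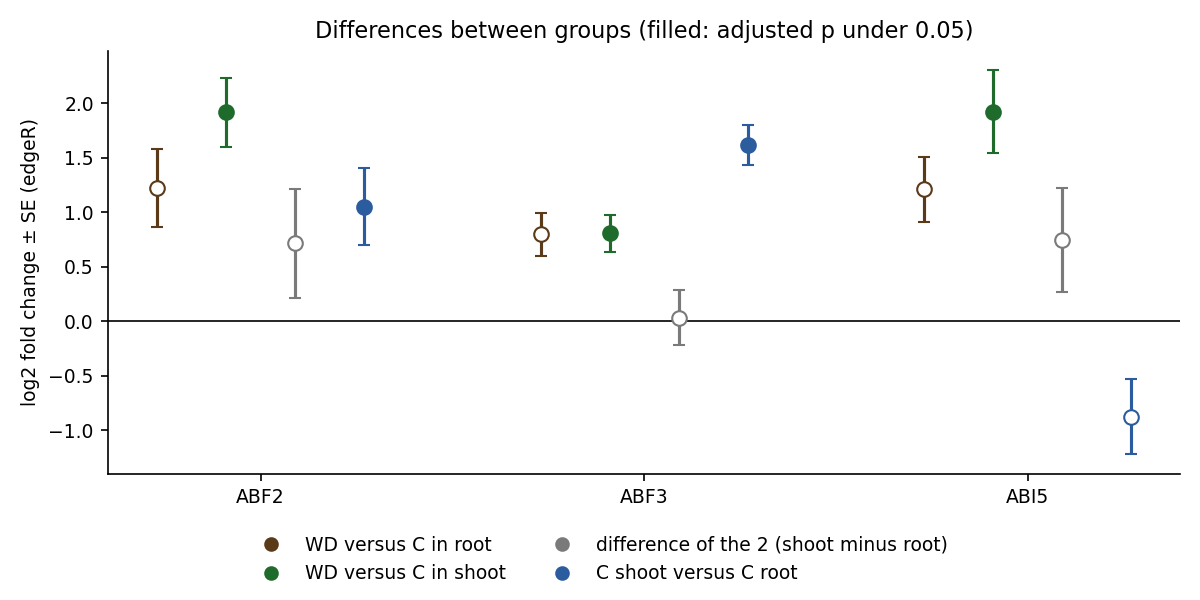
Log2 fold change ± SE from edgeR (vertical axis) for each gene in 4 comparisons, given by colour, with filled points for an adjusted p under 0.05. The shoot values of ABF2 and ABI5 are both 1.92, ABF3 is near 0.80 in both organs, and of the organ comparisons that of ABI5 is the negative one at -0.87.

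Whether the response differed between organs was tested as an interaction over the 12 libraries, in which 0.607% of 21267 genes were called by edgeR. None of the 3 genes was called. In simulated counts with few changed genes this test recovered 0 of 50 changes of 2-fold, a rate that need not hold for the real counts. The difference of the log2 fold changes, shoot minus root, was 0.72 for ABF2 (SE 0.50, adjusted p = 0.456), 0.75 for ABI5 (SE 0.48, adjusted p = 0.414) and 0.03 for ABF3 (SE 0.25, adjusted p = 0.979). In limma on log2(RPKM + 1) the differences were -0.11 for ABF3 and -0.073 for ABI5, a scale on which a low gene such as ABI5 is compressed. On log2(RPKM + 0.1) they were -0.14 and 0.13. The cause of the gap between these values and those from counts was not tested.

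In watered vines the factors were not shared alike between organs. ABF3 was higher in C shoot than in C root by 1.62 on the log2 scale (SE 0.18, adjusted p = 4.09e-05, edgeR), against 52% of genes called in this comparison and 27.3% called higher in shoot. ABF2 was higher by 1.05 (SE 0.35, adjusted p = 0.0286), a call lost in limma on log2(RPKM + 1), where the difference was 0.71 (adjusted p = 0.109), and without C root replicate 1 or 3 or C shoot replicate 1 or 2 (edgeR adjusted p-values of 0.0545 to 0.0981). ABI5 had a log2 difference of -0.87 (SE 0.35, adjusted p = 0.0541, edgeR), in a comparison with 24.7% of genes called lower in shoot. DESeq2 called ABI5 lower in shoot, with a difference of -0.91 (adjusted p = 0.0235, 28.6% of genes called lower). Without WD root replicate 2 or C shoot replicate 2 edgeR called it too (adjusted p = 0.0478 and 0.0104). In RPKM the 3 C shoot libraries of ABF3, from 32.5 to 35.6, lay above the highest WD root library at 23.6.

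The order of the 4 groups differed from gene to gene. By mean RPKM ABF2 ran from C root (4.76) through C shoot (8.36) and WD root (11.6) to WD shoot (28.6), and C shoot and WD root overlapped, as did WD root and WD shoot. ABF3 ran from C root (11.6) through WD root (20.7) and C shoot (34.5) to WD shoot (54.9) with no overlap between neighbours. ABI5 ran from C shoot (0.146) through C root (0.295) and WD shoot (0.412) to WD root (0.692), again with no overlap between neighbours. On the CPM scale set over the 12 libraries, the ABI5 levels of WD shoot (5.03 to 6.83) and WD root (5.27 to 9.08) did overlap.

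The make-up of the 3 factors within a library was described from RPKM, with no test. The ratio of ABF2 to ABF3 was 0.234, 0.254 and 0.240 in C shoot and 0.317, 0.476 and 0.766 in WD shoot, so that the groups did not overlap. In root it was 0.448, 0.467 and 0.318 in C and 0.458, 0.482 and 0.716 in WD, and here the groups overlapped. Replicate 3 had the highest ratio among the WD libraries of both organs and the lowest among the C root libraries. Taken from raw counts instead, the ratio was 0.531 to 0.573 in C shoot and 0.773 to 1.79 in WD shoot, again without overlap. The summed RPKM of the 3 genes was 40.4 to 44.5 in C shoot, 65.2 to 93.5 in WD shoot, 16.003 to 17.74 in C root and 22.8 to 40.2 in WD root. ABI5 made up 0.231 to 0.638% of that sum in the shoots and 1.43 to 2.79% in the roots.

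**Figure D3:**
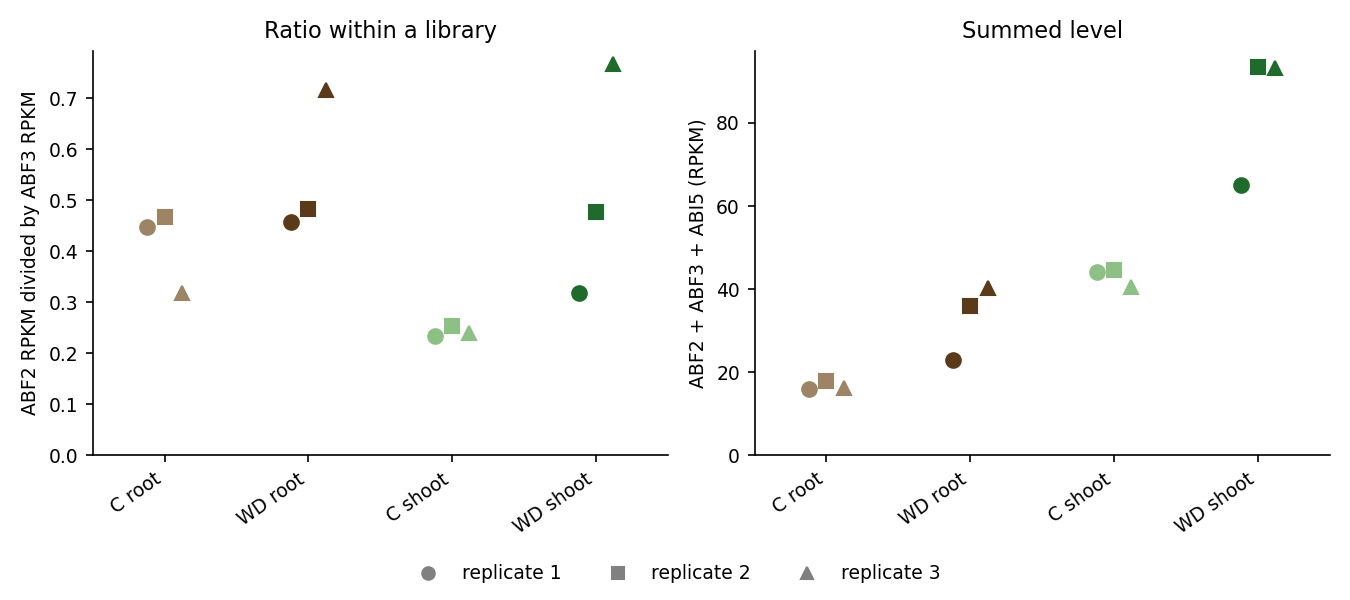
Left, RPKM of ABF2 divided by that of ABF3 in each library, and right, the summed RPKM of the 3 genes, by group with the replicate number as the symbol. The ratio in WD shoot runs from 0.317 to 0.766 against 0.234 to 0.254 in C shoot, while the root groups overlap.

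The other genes of the ABA pathway were read from a list of 29, most of which the authors had selected as differentially expressed on these same libraries, so their counts are not independent evidence of direction. In shoot 28 passed the filter, and edgeR called 22 higher and 2 lower, against 13.1% and 14% of all tested genes. The log2 fold change was above 0 in 25 of the 28, with a median of 1.45 against -0.02 over all tested genes. In root 26 passed and 0 were called by edgeR, while 15 had an unadjusted p under 0.05 with a higher level in WD and 3 with a lower one. Over all tested genes 5.8% had such a p with a higher level in WD, and 9.06% in either direction. The median log2 fold change of the list was 0.99 against 0.01 over all tested genes. By DESeq2 8 were called higher and 1 lower in root, against 1.42% and 0.841% of all tested genes. The shoot calls of these genes leaned on the same libraries as those of the factors: of 21 named genes called in shoot in this list and in a list of other bZIP genes, 11 were still called without WD shoot replicate 2, 11 without C shoot replicate 3 and 17 without C shoot replicate 2, with the direction of all 21 kept.

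Of the receptors, RCAR12 fell by 2.38 on the log2 scale in shoot (SE 0.41, adjusted p = 0.0130, edgeR) and the RCAR10 copy on chromosome 8 fell by 2.25 (SE 0.55, adjusted p = 0.0283), whereas RCAR3 rose by 1.09 (SE 0.17, adjusted p = 0.0117). Leaving out 1 of the 6 libraries ended the call of the RCAR10 copy on chromosome 8 in 4 of 6 cases (WD shoot replicate 2 and each C shoot replicate, adjusted p of 0.0506 to 0.0957), that of RCAR12 in 2 and that of RCAR3 in 1. The RCAR10 copy on chromosome 13 was too low to test in shoot. In root the 4 receptors had values of -0.83, -0.84, 0.33 and, for the chromosome 13 copy, -2.30, none of them called by edgeR. DESeq2 called the last of these lower in root (adjusted p = 0.0196).

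All 4 phosphatases, which hold the pathway off, rose in shoot with the 6 libraries. ABI1, a PP2C and not a relative of the bZIP factor ABI5, rose by 1.77 (SE 0.20, adjusted p = 0.00831, edgeR), HAB1 by 1.47, PP2CA by 1.35 and DBP PP2C by 2.38. The call of PP2CA was lost without WD shoot replicate 2, C shoot replicate 2 or C shoot replicate 3 (adjusted p of 0.0519 to 0.0680), that of DBP PP2C without WD shoot replicate 2 (0.0563) and that of HAB1 without C shoot replicate 3 (0.0501), while ABI1 stayed called in all 6 cases. In root their log2 fold changes were 2.42, 0.77, 1.06 and 2.19, with no call by edgeR, and DESeq2 called ABI1 (adjusted p = 4.8e-06), PP2CA (0.00158) and DBP PP2C (0.000601).

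Of the kinases upstream of the factors, SnRK2.2 rose by 1.58 in shoot (SE 0.34, adjusted p = 0.0207, edgeR), and SOS2/CIPK15, of the calcium-linked CIPK family, rose by 1.12 (SE 0.28, adjusted p = 0.0308). OST1, the SnRK2 kinase of guard cells in Arabidopsis, had a log2 fold change of 0.84 (SE 0.27, adjusted p = 0.0580, edgeR). Without WD shoot replicate 2 or C shoot replicate 3 neither of the first 2 kinases was called (adjusted p of 0.0716 to 0.106), and SOS2/CIPK15 was also lost without C shoot replicate 2 (0.0861). In root the values were 1.41, 1.27 and 0.28, with no call.

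The 3 ubiquitin ligases rose in shoot with the 6 libraries. The KEG gene on chromosome 4 had 20.6 to 27.6 CPM in C shoot and 44.2 to 67.4 in WD shoot (log2 fold change 1.21, SE 0.21, adjusted p = 0.0139, edgeR). The KEG gene on chromosome 9 had 43.6 to 58.5 CPM in C shoot and 126 to 181 in WD shoot (1.54, SE 0.20, adjusted p = 0.00912). AIP2, which in Arabidopsis targets the ABA factor ABI3, rose by 0.99 (SE 0.22, adjusted p = 0.0226). The call of AIP2 held in 2 of 6 cases when a library was left out (lost without WD shoot replicate 2 or 3 and C shoot replicate 2 or 3, adjusted p of 0.0581 to 0.0895), that of KEG on chromosome 4 was lost without WD shoot replicate 2 (0.0568) or C shoot replicate 3 (0.0535), and KEG on chromosome 9 stayed called in all 6. In root the log2 fold changes were 0.08, 0.60 and 0.29, with unadjusted p-values of 0.777, 0.242 and 0.167 by edgeR. The KEG values in root turned negative without WD root replicate 3, and that of chromosome 4 also without C root replicate 3. The interaction called none of the 3 by edgeR, with adjusted p-values of 0.122, 0.346 and 0.198, whereas DESeq2 called KEG on chromosome 4 at 1.17 (adjusted p = 0.0327).

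Of 4 genes listed under ABA synthesis 2 were called higher in shoot by edgeR, and of the breakdown genes 2 of 2, against 13.1% of all tested genes. The log2 fold change was above 0 in 3 of the 4 synthesis genes. The NCED enzymes cut carotenoids in the committed step of ABA synthesis. The 2 listed genes with the largest change were the neighbouring models VIT_02s0087g00910 (3.39, SE 0.39, adjusted p = 0.00867, edgeR) and VIT_02s0087g00930 (3.71, SE 0.44, adjusted p = 0.00894). Reads could be split between these related genes. They were listed as NCED genes, but the paper's text names neither among its differentially expressed NCED genes. What they encode was not tested. The 2 NCED genes that the paper names were not called in shoot, NCED3 at 1.03 (SE 0.82, adjusted p = 0.375, edgeR) and the chromosome 10 gene at -0.10 (SE 0.59, adjusted p = 0.910). In root they had 2.45 and 1.42, with no call by edgeR (adjusted p = 0.362 and 0.396) and a call by DESeq2 (0.000615 and 0.0181). They fall outside the rule for named genes and were named after their values were seen. CYP707A1 and CYP707A3, which inactivate ABA by hydroxylation, rose by 2.25 (SE 0.44, adjusted p = 0.0175) and 2.46 (SE 0.33, adjusted p = 0.00965), the former not called without WD shoot replicate 2 (0.0603) or C shoot replicate 3 (0.0690). CYP707A3 had a log2 fold change of -0.90 in root (SE 0.37, adjusted p = 0.549), and the interaction was called at 3.37 (SE 0.55, adjusted p = 0.0488). CYP707A1 went the other way in root, where DESeq2 called it higher at 3.86 (SE 1.16, adjusted p = 0.0415) and edgeR did not call it. Its counts were 2 to 25 in C root and 10 to 779 in WD root.

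Of 9 effector genes, 8 were called higher in shoot by edgeR, against 13.1% of all tested genes, and 9 had a log2 fold change above 0. Dehydrin 1, a hydrophilic protein of drying tissue, had 1 to 4 counts in C shoot and 68 to 444 in WD shoot (adjusted p = 0.00991, edgeR). AWPM19, a plasma membrane protein gene, rose by 5.42 in shoot (SE 0.70, adjusted p = 0.00919).

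**Figure D4:**
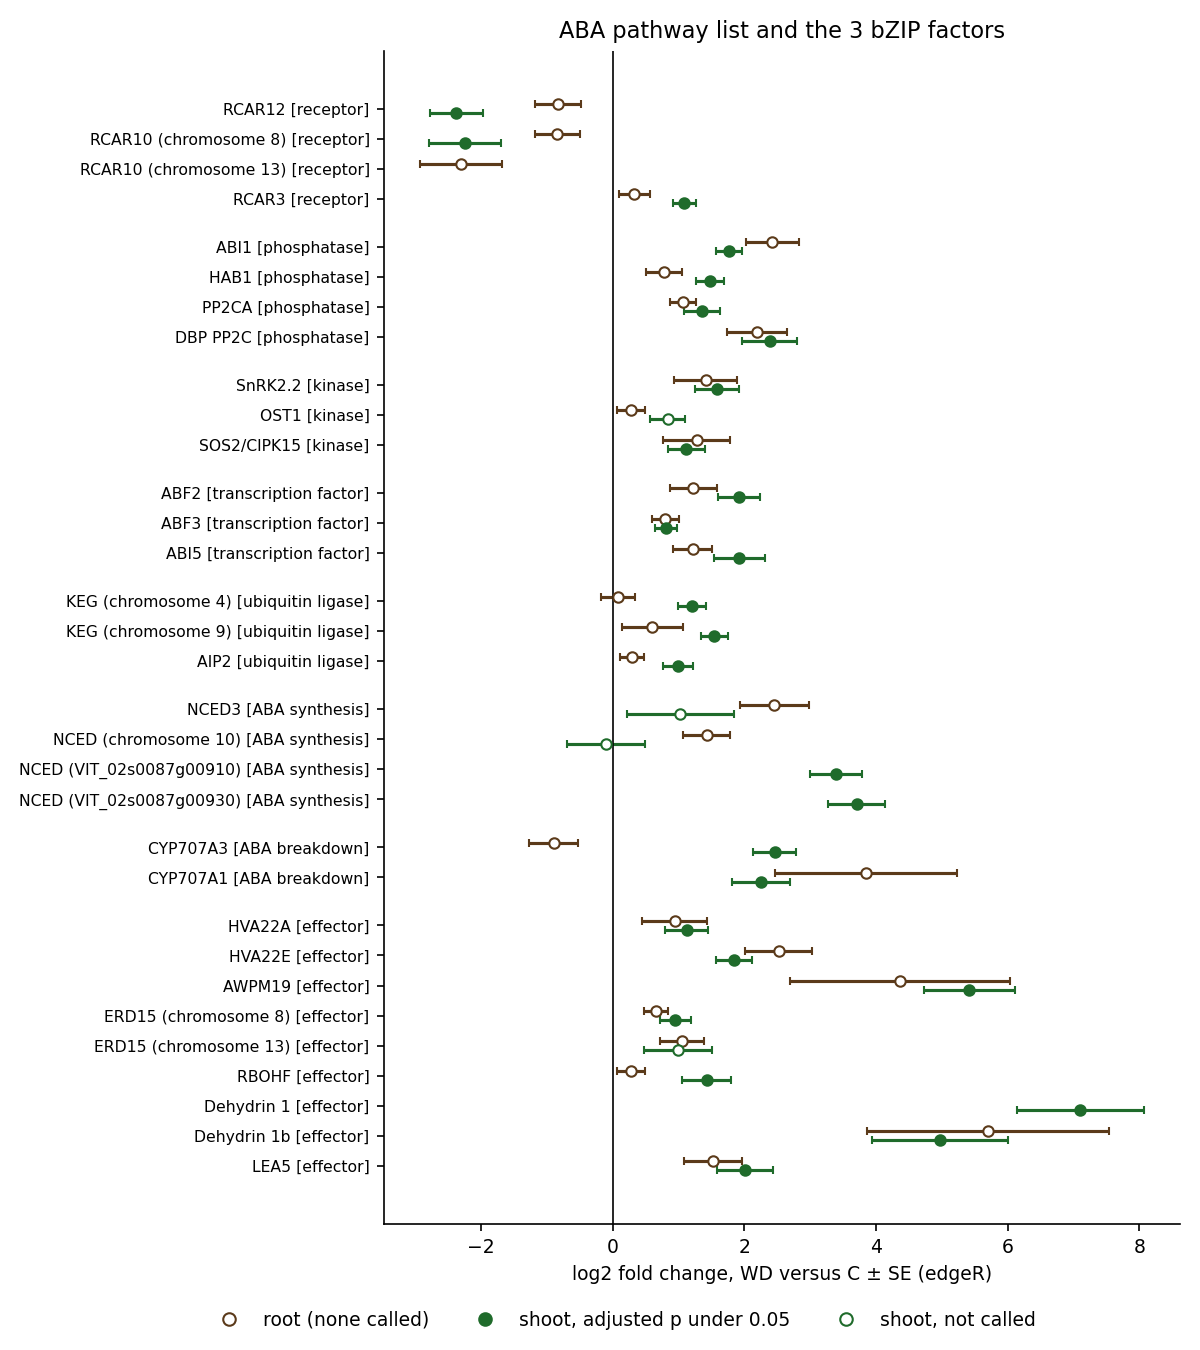
Log2 fold change ± SE of WD against C (horizontal axis, edgeR) for the 29 ABA pathway genes and the 3 factors, grouped by role, in root (brown) and shoot (green), with filled points for an adjusted p under 0.05 and no point where a gene did not pass the filter. In shoot the 4 phosphatases, the 3 ubiquitin ligases and the 3 factors are all filled and to the right of 0, and 2 receptors are filled and to the left, with no root point filled.

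A second list held 16 other bZIP genes, also drawn mostly from the authors' selection. In shoot edgeR called 11 of 16 higher and 0 lower, against 13.1% and 14% of all tested genes. The log2 fold change was above 0 in 15 of the 16 (median 1.11). In root 0 of 15 were called by edgeR, with a median of 0.63. Of these, 5 were higher in WD at an unadjusted p under 0.05, against 5.8% of all tested genes. DESeq2 called 1 gene of the list higher in root, against 1.42% of all tested genes. BZIPDOM_5 (VIT_06s0080g00360) had the largest change in shoot, 3.57 (SE 0.40, adjusted p = 0.00824, edgeR), from 0.591 to 1.21 CPM in C shoot to 7.99 to 14.9 in WD shoot, and was at 52.0 to 136 CPM in the roots. BZIP53 (VIT_05s0077g01140) rose by 3.42 (SE 0.54, adjusted p = 0.0117), a call lost without WD shoot replicate 2 (0.0507). GBF3 on chromosome 15, a G-box binding factor, rose by 1.89 in shoot (SE 0.19, adjusted p = 0.00776) and had a value of 0.60 in root (SE 0.14, adjusted p = 0.382), with a called interaction of 1.31 (SE 0.22, adjusted p = 0.0488). The interaction of BZIPDOM_5 was called at 3.52 (SE 0.58, adjusted p = 0.0488). ABF2 and ABI5, at 1.92, thus lay above the median of this list in shoot and ABF3, at 0.81, below it.

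Likeness of pattern was measured as the root mean square difference between log2(CPM + 0.5) profiles over the 12 libraries, each centred on its own mean, among 21267 genes. The genes nearest to ABF2 were VIT_18s0001g07500, a mechanosensitive ion channel (0.188), VIT_02s0012g01400, a PLATZ transcription factor (0.230), and VIT_06s0061g00410, an ABC transporter of the F group (0.257), where the median over all genes was 1.28. The genes nearest to ABF3 were VIT_04s0023g02040, an endoplasmic reticulum retrieval protein (0.191), VIT_13s0019g04130 (0.204) and VIT_11s0016g01150 (0.206). The genes nearest to ABI5 were VIT_13s0019g04450, a synaptotagmin (0.2203), VIT_01s0011g06250, a xyloglucan endotransglycosylase (0.338), and VIT_11s0118g00200, a sucrose-phosphate synthase (0.365). The factors were not each other's nearest genes: ABF3 ranked 300th from ABF2 (0.524) and ABI5 ranked 6293rd from ABF2 (1.04). On log2(RPKM + 1) the first gene for ABF3 stayed first, the first 2 for ABF2 changed places, and another gene came first for ABI5. The 12 profiles share the same libraries and their scaling.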

How the data were processed

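Total RNA from 12 samples was sequenced as 100 bp single-end reads. The authors cleaned the reads with Prinseq, aligned them with TopHat 2.0.8 and Bowtie2 2.1.0 to PN40024 12X of V. vinifera, and deposited raw counts per gene model from htseq-count. RPKM values per library were deposited by the authors from Cufflinks (2.2.2 in the submitters' processing notes). Deposited Cuffdiff tables hold only the authors' own fold changes, p-values and q-values and were not used. Lines naming no gene were left out, which leaves 69.1 to 76.5% of all tabulated reads. Unassigned sample columns numbered 0. Groups came from the labels.

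Counts were filtered with filterByExpr, scaled by TMM and tested with edgeR 4.0.16 (R 4.3.3, quasi-likelihood, two-sided), with Benjamini-Hochberg adjustment over all tested genes and a threshold of 0.05. WD was compared with C over the 6 libraries of each organ, and the interaction and C shoot against C root over the 12. The SE is the log2 fold change divided by the square root of F. A CPM of one gene is scaled within its organ unless the text says otherwise. Alternatives were DESeq2 1.42.0, limma 3.58.1 on RPKM logged with a pseudocount of 1 or 0.1, upper-quartile scaling, total counts, no filter, at least 10 counts in every library, a replicate block, all 12 libraries in a single model, and each library left out. The code was tested on simulated counts with 50 changed genes at each size. Of the 2-fold changes edgeR recovered 2 in root, 2 in shoot and 0 in the interaction. Of the 4-fold changes it recovered 30, 25 and 10. The changed genes were drawn at random and were few among all genes, so these rates need not hold for the real counts. In shoot, for instance, the real counts gave 5301 calls. For changes near 2-fold, a missing call does not show that a change is absent. The genes named beside the 3 factors were every receptor, phosphatase, kinase and ubiquitin ligase of the list, the 2 of each other role with the largest change in shoot, those called in the interaction, and the 3 nearest profiles of each factor. The factors and lists were chosen with earlier results of these data known. Between replicates, chi-square per degree of freedom was 23.6 to 171, so no library was a duplicate of another.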

Additional observations from a re-analysis of the deposited data

Results flagged for a closer look

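The interaction test of edgeR over the 12 libraries, for a WD response that differs between organs, called none of the factors and 3 of the listed genes. The difference of the log2 fold changes, shoot minus root, was 3.37 for CYP707A3, 3.52 for BZIPDOM_5 and 1.31 for GBF3 (chromosome 15), each with an adjusted p of 0.0488 (0.607% of all genes called). None of the 3 was called without WD root replicate 1 or 2, any C root replicate, WD shoot replicate 2 or 3, or C shoot replicate 2 or 3, where adjusted p-values were 0.0541 to 0.130, and BZIPDOM_5 was also not called in limma on log2(RPKM + 1), at 0.55, or with a pseudocount of 0.1, at 1.91. Groups of 3 libraries are too small to be screened for outlying samples.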

How the results depend on the processing

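The direction of WD against C held for the 3 factors in both organs under every alternative run, as did that of C shoot against C root. The size for ABI5 did not: in limma on log2(RPKM + 1) WD against C was 0.30 in shoot and 0.38 in root, and on log2(RPKM + 0.1) it was 1.10 and 0.96. In root DESeq2 called ABF3 at 0.78 and ABI5 at 1.20, and called 441 genes, where all 12 libraries in a single model called 11 (0 otherwise). In shoot, leaving out a library gave log2 fold changes of 1.62 to 2.18 for ABF2, 0.71 to 0.89 for ABF3 and 1.74 to 2.38 for ABI5, with 632 to 6115 genes called. In the interaction, the ABF3 difference was -0.12 with total counts, -0.11 in limma on log2(RPKM + 1) with or without the filter, -0.14 with a pseudocount of 0.1, and -0.14 to 0.13 when a library was left out, and the ABI5 difference was -0.073 in limma on log2(RPKM + 1) with or without the filter. The interaction called 129 genes, against 1917 by DESeq2, 303 with total counts, 60 with no filter, 284 with at least 10 counts, 861, 550 and 653 in limma with pseudocounts of 1, 0.1 and 1 without a filter, and 0 to 1257 when a library was left out. For C shoot against C root, ABF2 was no longer called with upper-quartile scaling (0.91), total counts (0.92) and limma (0.71 with a pseudocount of 1, with or without the filter, and 0.81 with 0.1), and ran from 0.90 to 1.25 when a library was left out. ABI5 was called by DESeq2 (-0.91), with upper-quartile scaling (-1.01), total counts (-0.97), at least 10 counts (-0.91) and limma with a pseudocount of 0.1 (-0.71), and ran from -1.30 to -0.69 when a library was left out. When a root library was left out, the values in root were -0.14 to 0.24 for KEG on chromosome 4, -0.032 to 0.93 for KEG on chromosome 9 and -0.23 to 0.34 for BZIPDOM_5. The cause of these changes was not tested.

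Replicate numbers are shared between groups, but no label says that a number marks shared vines or a shared day. Deviations of same-numbered root and shoot libraries of the same water treatment had r from 0.00202 to 0.298. Those of different numbers had r from -0.326 to 0.141. For same-numbered WD and C libraries of an organ, r was -0.435 to 0.155. Whether same-numbered root and shoot libraries share vines was not tested. Within each organ the replicate number served as a block. Log2 fold changes of ABF2, ABF3 and ABI5 were then 1.14, 0.78 and 1.18 in root and 1.84, 0.81 and 2.00 in shoot. For the interaction and for C shoot against C root, the block was the replicate number within WD or within C. No call of the 3 factors changed in any comparison. Of the other named genes in shoot, AIP2 was no longer called with the block (0.98) and OST1 was (0.83). AIP2, SOS2/CIPK15 and CYP707A1 were not called in limma on log2(RPKM + 1) without the filter (adjusted p of 0.0606 to 0.0686), nor were SOS2/CIPK15 and CYP707A1 with all 12 libraries in a single model (0.0760 and 0.111). The block within WD or C called 757 genes in the interaction. There ABF2 had a difference of 0.72 (unadjusted p = 0.0147, adjusted p = 0.124, edgeR). At 25 to 182 counts a library, the level of ABI5 is the least precise of the 3.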
